A study of Mus musculus with 24 samples.

Results

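The genes described here are 58 mouse genes of ribosome production and of polyamine synthesis, followed in leukemia cells that lost Foxo1 or received a FOXO1 inhibitor. They were chosen by name, among genes whose deposited mean level was at least log2(11), though with earlier results of these data known, as were the lists of further genes used below. All 58 had a row and passed that limit, 57 by symbol and Utp4 by its identifier, out of 11470 genes tested. By role, 3 belong to box C/D and 4 to box H/ACA small nucleolar ribonucleoproteins, 6 to RNA polymerase I transcription, 19 to the processing of the small ribosomal subunit and 18 to assembly of the large one. A further 6 are other nucleolar proteins, and Srm and Odc1 make polyamines.

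RNA sequencing covered 24 libraries of murine B-cell acute lymphoblastic leukemia cells, with bone marrow as the labelled source. Every group carried the BCR-ABL1 oncogene, floxed Foxo1 alleles (Foxo1fl/fl) and Cre-ERT2, a recombinase that 4-hydroxytamoxifen (4-OHT) switches on. For the deletion arm the treatment was 200 nM 4-OHT or its vehicle ethanol (EtOH), and for the compound arm 70 nM AS1842856, described in the series title as inhibiting both FOXO1 and GSK3, or DMSO. Each of these 4 treatments was sampled at 24 h and at 48 h with 3 libraries, which gave 8 groups, and no vehicle library served in more than 1 treatment comparison. EtOH cells kept their Foxo1 alleles but carried Cre-ERT2 as the treated cells did, and no group that received 4-OHT without Cre-ERT2 is analysed here, so that effects of Foxo1 loss, of Cre activity and of 4-OHT itself cannot be told apart. The labels do not name a number of clones or mice, nor separate cultures for the replicates, and a p-value here therefore weighs a difference against the scatter of 3 libraries that may be technical repeats.

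Ribosomes are built in the nucleolus. RNA polymerase I transcribes a long precursor of ribosomal RNA, small nucleolar ribonucleoproteins guide its chemical modification, and large assemblies of proteins fold and cut it while ribosomal proteins join. Odc1 and Srm encode ornithine decarboxylase and spermidine synthase, which make the polyamines putrescine and spermidine, small cations that bind RNA. Genes of both kinds are classical targets of the transcription factor MYC and are highly active in dividing lymphoid and leukemic cells.

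Each value is a normalised log2 level as the authors deposited it, so total counts, and with them the counting error, are unknown. Library medians over the 11470 genes ranged from 9.16 to 9.23. Foxo1, the targeted gene, fell by 1.69 ± 0.07 on the log2 scale after 24 h of 4-OHT and fell by 1.97 ± 0.06 after 48 h (limma, adjusted p = 4.09e-06 and 1.01e-07), and all 8 defining B-lineage markers were detected in every group. With 4-OHT at 24 h 4 of these 8 fell, Ebf1 (-0.63) and Pax5 (-0.55) most, and Cd79a (0.35) and Cd79b (0.55) rose, and at 48 h 2 fell and 4 rose. Their summed level (log2) was 15.95 to 15.99 with EtOH and 15.89 to 15.95 with 4-OHT at 24 h, and 15.81 to 15.91 and 16.02 to 16.07 at 48 h. Of markers of other cells, 3 of 11 myeloid, 2 of 10 T and NK, 1 of 7 erythroid and 1 of 9 stromal and endothelial genes passed the limit on low values. All 7 of these were higher with 4-OHT at both times. The summed level (log2) of the T and NK markers, Lck and Zap70 among them, was 10.66 to 10.70 with EtOH and 11.93 to 12.05 with 4-OHT at 24 h, and 10.25 to 10.44 and 12.09 to 12.19 at 48 h. That of the myeloid markers was 6.64 to 6.90 and 7.54 to 7.64 at 24 h, and 6.77 to 7.09 and 7.70 to 7.89 at 48 h. That of the stromal and endothelial list, where Pecam1 passed, was 9.69 to 9.70 and 10.25 to 10.32 at 24 h, and 9.36 to 9.51 and 10.63 to 10.70 at 48 h. That of the erythroid list, where Gata1 passed, was 3.09 to 3.12 and 3.37 to 4.01 at 24 h, and 3.10 to 3.42 and 3.48 to 3.57 at 48 h. The T and NK sum was mostly Lck, whose mean level over all libraries was 11.24. Zap70 was at 7.05 and the other T and NK genes, Cd3e, Cd3d and Cd8a among them, were at 3.42 or lower. The stromal and endothelial sum was mostly Pecam1 (10.10), with the other genes of that list at 1.17 or lower. Elane, Ly6g, S100a8, S100a9, Cd4, Ncr1, Hba-a1, Hbb-bt, Col3a1, Pdgfra and Kdr were listed at 0 in every library. The part of these markers in the results below was not tested, and in bulk RNA fewer cells of a type and less RNA per cell cannot be told apart.

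The members were abundant transcripts. Their median mean level was 10.94 (log2, the authors' mean over all libraries) against 9.23 for all tested genes, and only Nolc1, a chaperone of small nucleolar ribonucleoproteins also called Nopp140, lay below the latter at 5.88. Per kilobase of exon, Npm1, which encodes nucleophosmin, was highest at 14.22 (log2 level per kilobase), followed by Ncl, which encodes nucleolin, at 12.27 and Odc1 at 12.09. Nolc1 was lowest on that scale too, at 3.89. In the GENCODE M21 annotation of GRCm38 all 58 are protein-coding, 8 host genes of small nucleolar RNAs in their bodies (5 such genes within Nop56), and 22 overlap another annotated gene on the opposite strand. Whether counting used strand is not given in the sources used here, and for those 22 genes reads of the partner cannot be told apart.

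Over the 24 libraries the members moved largely together. As a description over libraries that share treatments and scaling, the median correlation of a member with the mean of the others was r = 0.94, and 36 of 58 members exceeded 0.9. Nop2, an RNA methyltransferase of the large subunit, and Srm were closest to the rest, both at r = 0.99. The members that followed it least were Nolc1 (r = 0.20), Polr1c (r = 0.31) and Ubtf (r = 0.53). Among all other tested genes, the 5 whose level over the 24 libraries was most like the mean of the members were Hspd1, a mitochondrial chaperonin (r = 0.99), Rrp15, a ribosomal RNA processing factor (0.99), Nsun2, an RNA cytosine methyltransferase (0.99), Aen, a nuclease (0.99), and Heatr3, a factor of ribosomal protein import (0.99).

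Averaged over the 58 members, each centred on its own mean over 24 libraries, the 24 h EtOH libraries lay at 0.11, 0.11 and 0.11 (log2) and the 4-OHT libraries at -0.14, -0.18 and -0.15. At 48 h EtOH lay at 0.06, 0.02 and 0.03 and 4-OHT at -0.40, -0.44 and -0.49. The 6 libraries treated with 4-OHT thus held 6 of the 7 lowest means of the 24. In the compound arm the 24 h means were 0.19, 0.09 and 0.25 with DMSO and 0.32, 0.30 and 0.03 with AS1842856. At 48 h they were -0.23, 0.10 and 0.08 with DMSO and -0.07, 0.14 and 0.15 with AS1842856, so the 2 groups overlapped at both times. Replicate 3 of AS1842856 at 24 h and both replicates numbered 1 of the compound arm at 48 h lay below the other libraries of their groups, and several results that rest on them are also given without them.

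**Figure D1:**
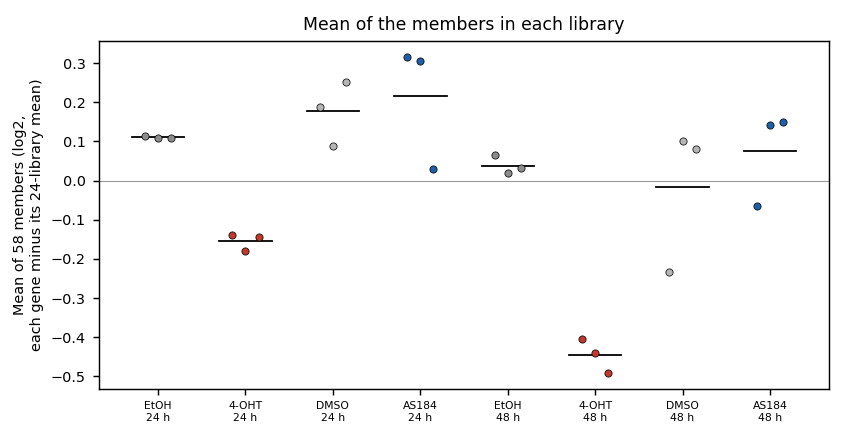
Mean of the 58 members in each library, after subtracting from each gene its mean over the 24 libraries, by group (AS184 stands for AS1842856). Points from left to right are replicates 1 to 3 and lines are group means. The 4-OHT libraries lie at -0.18 to -0.14 at 24 h and -0.49 to -0.40 at 48 h, and the DMSO and AS1842856 libraries overlap.

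MYC binds the E-box CACGTG, which reads the same on both strands, and since the members moved together, the 250 bases before the annotated start (RefSeq, GRCm38.p6) were searched for it. A window was found for 52 of the 58 members, and 4 of the 52 held an E-box, 7.69%, against 6.86% of all 27025 genes with a window. These 4 windows are shown 5′ to 3′ on the strand of the gene, with the E-box in capitals, because they are the members with that motif. They belong to Imp4, a protein of the U3 ribonucleoprotein, to Nop2, to Rrn3, which recruits RNA polymerase I, and to Utp18, of the small subunit processome.
Imp4 promoter, GRCm38.p6 chr1:34439579-34439828, plus strand: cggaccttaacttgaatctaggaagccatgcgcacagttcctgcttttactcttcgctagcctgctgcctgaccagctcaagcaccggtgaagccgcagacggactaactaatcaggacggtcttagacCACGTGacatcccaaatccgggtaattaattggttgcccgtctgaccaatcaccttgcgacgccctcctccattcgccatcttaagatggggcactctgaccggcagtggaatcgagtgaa
Nop2 promoter, GRCm38.p6 chr6:125131633-125131882, plus strand: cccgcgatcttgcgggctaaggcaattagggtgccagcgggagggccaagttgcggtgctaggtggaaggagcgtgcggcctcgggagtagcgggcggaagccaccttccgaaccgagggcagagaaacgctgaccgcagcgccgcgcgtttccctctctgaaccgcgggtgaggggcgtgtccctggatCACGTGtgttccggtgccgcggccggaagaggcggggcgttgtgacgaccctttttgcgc
Rrn3 promoter, GRCm38.p6 chr16:13780449-13780698, plus strand: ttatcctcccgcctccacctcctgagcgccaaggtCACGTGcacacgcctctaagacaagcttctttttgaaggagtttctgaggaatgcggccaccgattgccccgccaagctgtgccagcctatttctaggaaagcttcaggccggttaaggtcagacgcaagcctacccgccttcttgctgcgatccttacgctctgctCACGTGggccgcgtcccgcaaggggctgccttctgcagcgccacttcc
Utp18 promoter, GRCm38.p6 chr11:93885767-93886016, minus strand: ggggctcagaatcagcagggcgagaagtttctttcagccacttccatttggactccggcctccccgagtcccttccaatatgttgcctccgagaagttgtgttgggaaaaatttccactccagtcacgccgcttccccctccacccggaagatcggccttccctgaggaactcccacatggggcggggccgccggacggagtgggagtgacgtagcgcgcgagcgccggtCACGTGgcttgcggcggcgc
The motif began 121 bases before the start in Imp4, 60 in Nop2, 215 and 48 in Rrn3 and 20 in Utp18. After 48 h of 4-OHT the median difference was -0.39 (log2, -0.63 to -0.28) for these 4 and -0.54 (-0.74 to 0.08) for the 48 without the motif, given as a description. The related letters CACGCG, or CGCGTG on the other strand, occurred in 9 of 52 windows, 17.3% against 8.65% of all genes, and include that of Odc1. The forkhead letters GTAAACA, or TGTTTAC on the other strand, occurred in 1 window, that of Rrp1b, 1.92% against 3.54%. A match is a string of letters and not an occupied site, and other distances and enhancers were not searched.

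Within 24 h of Cre activation most members were lower. Of 58 members, 50 fell and none rose (limma, adjusted p under 0.05), where 29.5% of all tested genes were called and 13.7% were called lower. The median member difference was -0.28 (log2, -0.50 to 0.00), and that of all tested genes was -0.002. By role, 3 of 3 box C/D, 4 of 4 box H/ACA, 3 of 6 RNA polymerase I, 17 of 19 small subunit, 17 of 18 large subunit, 5 of 6 other nucleolar and 1 of 2 polyamine genes fell. In 52 members all 3 treated libraries lay below all 3 vehicle libraries, where 22.7% of all genes did so. The 8 that did not pass, named after their values were seen, were Odc1, Nolc1, Polr1c, Polr1e, Ubtf, Imp3, Imp4 and Pes1.

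The polyamine enzymes differed at this time. Srm (GRCm38 chr4:148591503-148594993, plus strand) stood at a log2 level of 11.81, 11.68 and 11.82 with EtOH and 11.25, 11.28 and 11.27 with 4-OHT, and fell by 0.50 ± 0.04 (log2 difference ± SE, n = 3 libraries per group, limma, adjusted p = 8.84e-05). All 3 treated libraries were below all 3 vehicle libraries, and the fall was the largest of any member. Odc1 (chr12:17544794-17551505, plus strand) stood at 13.92, 13.94 and 14.01 with EtOH and 13.94, 13.93 and 14.02 with 4-OHT, with a difference of 0.00 ± 0.04 (adjusted p = 0.986). Its groups overlapped throughout.

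The scaffolds of both classes of small nucleolar ribonucleoprotein were lower. Nop56, a core protein of the box C/D particles that guide ribose methylation, had log2 levels of 13.20, 13.24 and 13.21 with EtOH and 12.83, 12.79 and 12.88 with 4-OHT (difference -0.38 ± 0.03, limma, adjusted p = 8.80e-05). Its partner Nop58 had 12.85, 12.85 and 12.91 against 12.63, 12.58 and 12.57 (difference -0.28 ± 0.03). In neither gene did the groups overlap. Dkc1, the pseudouridine synthase of the box H/ACA particles, stood at 12.42, 12.52 and 12.44 with EtOH and 12.22, 12.11 and 12.14 with 4-OHT (difference -0.30 ± 0.04). Nhp2, a second protein of those particles, stood at 11.54, 11.55 and 11.51 and at 11.20, 11.23 and 11.33 (difference -0.28 ± 0.04), again without overlap.

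RNA polymerase I genes were divided. Polr1a, the largest subunit, had log2 levels of 10.14, 9.99 and 10.15 with EtOH and 9.92, 9.78 and 9.75 with 4-OHT (difference -0.28 ± 0.06, limma, adjusted p = 0.0124). Polr1b, the second largest subunit, had 10.76, 10.72 and 10.79 against 10.31, 10.26 and 10.26 and fell by 0.48 ± 0.04 (adjusted p = 5.05e-05), after Srm the largest fall of a member. Both were below their vehicle in every library. The other member of this role to fall was Rrn3, and Polr1c, a subunit shared with RNA polymerase III, Polr1e and Ubtf, which opens ribosomal DNA for transcription, had differences of -0.01, -0.05 and -0.05 that did not pass.

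Among processing and assembly factors, Rrp12, needed for the maturation and export of subunits in yeast, had the third largest fall, from log2 levels of 10.11, 10.17 and 10.13 with EtOH to 9.75, 9.71 and 9.71 with 4-OHT (difference -0.42 ± 0.04, limma, adjusted p = 1.36e-04). Nop14, of the small subunit processome, stood at 10.92, 10.94 and 10.92 against 10.67, 10.69 and 10.73 (difference -0.23 ± 0.03). Rrp9, a protein of the U3 ribonucleoprotein, stood at 10.21, 10.34 and 10.24 against 10.003, 9.79 and 9.91 (difference -0.36 ± 0.06). On the side of the large subunit, Nop2 had 11.39, 11.39 and 11.34 against 11.08, 11.05 and 11.10 (-0.29 ± 0.03), and Nop16 had 10.41, 10.49 and 10.49 against 10.20, 10.15 and 10.33 (-0.24 ± 0.05). Of the most abundant nucleolar proteins, Ncl had 15.67, 15.69 and 15.67 against 15.40, 15.31 and 15.36 (-0.32 ± 0.04), and Npm1 had 15.59, 15.59 and 15.61 against 15.39, 15.29 and 15.37 (-0.25 ± 0.04). In all 7 of these genes the treated libraries lay below the vehicle libraries without overlap. With all 8 groups in 1 model, which share 1 estimate of the spread, 32 members passed in place of 50, where 19.3% of all genes passed.

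After 48 h of 4-OHT the members were lower still. Of 58, 53 fell and 1, Ubtf, rose (limma, adjusted p under 0.05), where 50.8% of all tested genes were called, 25.8% lower and 25% higher. The median member difference was -0.54 (log2, -1.02 to 0.08) against 0.01 for all tested genes. All 19 small subunit, all 18 large subunit and all 3 box C/D members fell, with medians of -0.54, -0.53 and -0.49, and 3 of 4 box H/ACA members fell, with a median of -0.54. RNA polymerase I genes were lower in 3 of 6 (median -0.17), other nucleolar genes in 5 of 6 (median -0.59) and the polyamine genes in 2 of 2 (median -0.81). In 53 members all 3 treated libraries lay below all 3 vehicle libraries, where 30.1% of all genes did so. The 4 that did not pass, named after their values were seen, were Nop10, Polr1c, Polr1e and Nolc1.

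Both polyamine enzymes now fell. Srm went from log2 levels of 11.71, 11.66 and 11.78 with EtOH to 10.76, 10.73 and 10.60 with 4-OHT, a difference of -1.02 ± 0.05 (limma, adjusted p = 8.55e-07) and the largest of any member. In the authors' deposited table Srm was at 0.356-fold of vehicle. Odc1, the rate-limiting enzyme of the pathway, went from 13.92, 13.91 and 13.98 to 13.36, 13.39 and 13.30, a difference of -0.59 ± 0.04 (adjusted p = 2.73e-06), and the authors' deposited table had it at 0.538-fold. In both genes every treated library lay below every vehicle library, by at least the whole spread within a group.

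The ribonucleoprotein scaffolds fell further. Nop56 had log2 levels of 13.05, 12.93 and 12.92 with EtOH and 12.51, 12.37 and 12.31 with 4-OHT (difference -0.57 ± 0.06), and Nop58 had 12.74, 12.74 and 12.78 against 12.32, 12.34 and 12.14 (-0.49 ± 0.05). Dkc1 had 12.35, 12.30 and 12.32 against 11.79, 11.85 and 11.67 (-0.56 ± 0.05), and Nhp2 had 11.49, 11.39 and 11.41 against 10.94, 10.93 and 10.81 (-0.54 ± 0.05). None of these 4 overlapped between groups, with limma adjusted p from 1.79e-05 to 6.81e-05. Nop10, the smallest protein of the box H/ACA core, was the exception in its role, at 10.56, 10.33 and 10.37 against 10.33, 10.31 and 10.21, where the groups overlapped (difference -0.14 ± 0.06, limma, adjusted p = 0.103).

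RNA polymerase I genes again moved apart. Polr1a had log2 levels of 10.004, 10.02 and 9.88 with EtOH and 9.58, 9.22 and 9.78 with 4-OHT (difference -0.44 ± 0.12, limma, adjusted p = 0.0146). Polr1b had 10.46, 10.45 and 10.25 against 10.0005, 9.72 and 9.75 (-0.56 ± 0.08). Both fell without overlap. Ubtf went the other way, from 12.45, 12.38 and 12.42 to 12.49, 12.52 and 12.50, a rise of 0.08 ± 0.03 (adjusted p = 0.0402). That call of Ubtf was lost in 5 of the 6 fits without 1 library (adjusted p 0.0358 to 0.142), with no trend in the variance (0.115), and in the authors' deposited table (0.277). Polr1c, at 10.19, 9.99 and 9.98 against 10.11, 10.19 and 9.98, overlapped between groups.

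The deepest falls after Srm were those of Wdr74, a factor that acts with a large remodelling ATPase on large subunit precursors, and of Lyar, a nucleolar zinc-finger protein of growing cells. Wdr74 had log2 levels of 9.81, 9.76 and 9.82 with EtOH and 9.07, 9.10 and 8.99 with 4-OHT (difference -0.74 ± 0.05, limma, adjusted p = 4.55e-06), and Lyar had 12.11, 12.08 and 12.12 against 11.43, 11.43 and 11.24 (-0.74 ± 0.05, adjusted p = 6.68e-06). Nop14 had 10.98, 11.03 and 11.06 against 10.44, 10.43 and 10.39 (-0.60 ± 0.04), and Rrp9 had 10.20, 10.13 and 10.18 against 9.82, 9.45 and 9.47 (-0.59 ± 0.09). None of the 4 overlapped between groups. Nop2 had 11.36, 11.26 and 11.30 against 10.76, 10.64 and 10.63 (-0.63 ± 0.05), and Nop16 had 10.34, 10.27 and 10.46 against 9.93, 9.85 and 9.84 (-0.49 ± 0.05). Ncl had 15.59, 15.58 and 15.57 against 15.04, 15.01 and 14.96 (-0.58 ± 0.03), and Npm1 had 15.55, 15.50 and 15.55 against 15.11, 15.10 and 15.02 (-0.46 ± 0.04). In these 4 too every treated library lay below every vehicle library. The one nucleolar member that did not pass was Nolc1, whose libraries ranged from 5.55 to 5.74 with EtOH and from 5.34 to 6.14 with 4-OHT (difference -0.01 ± 0.18).

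**Figure D2:**
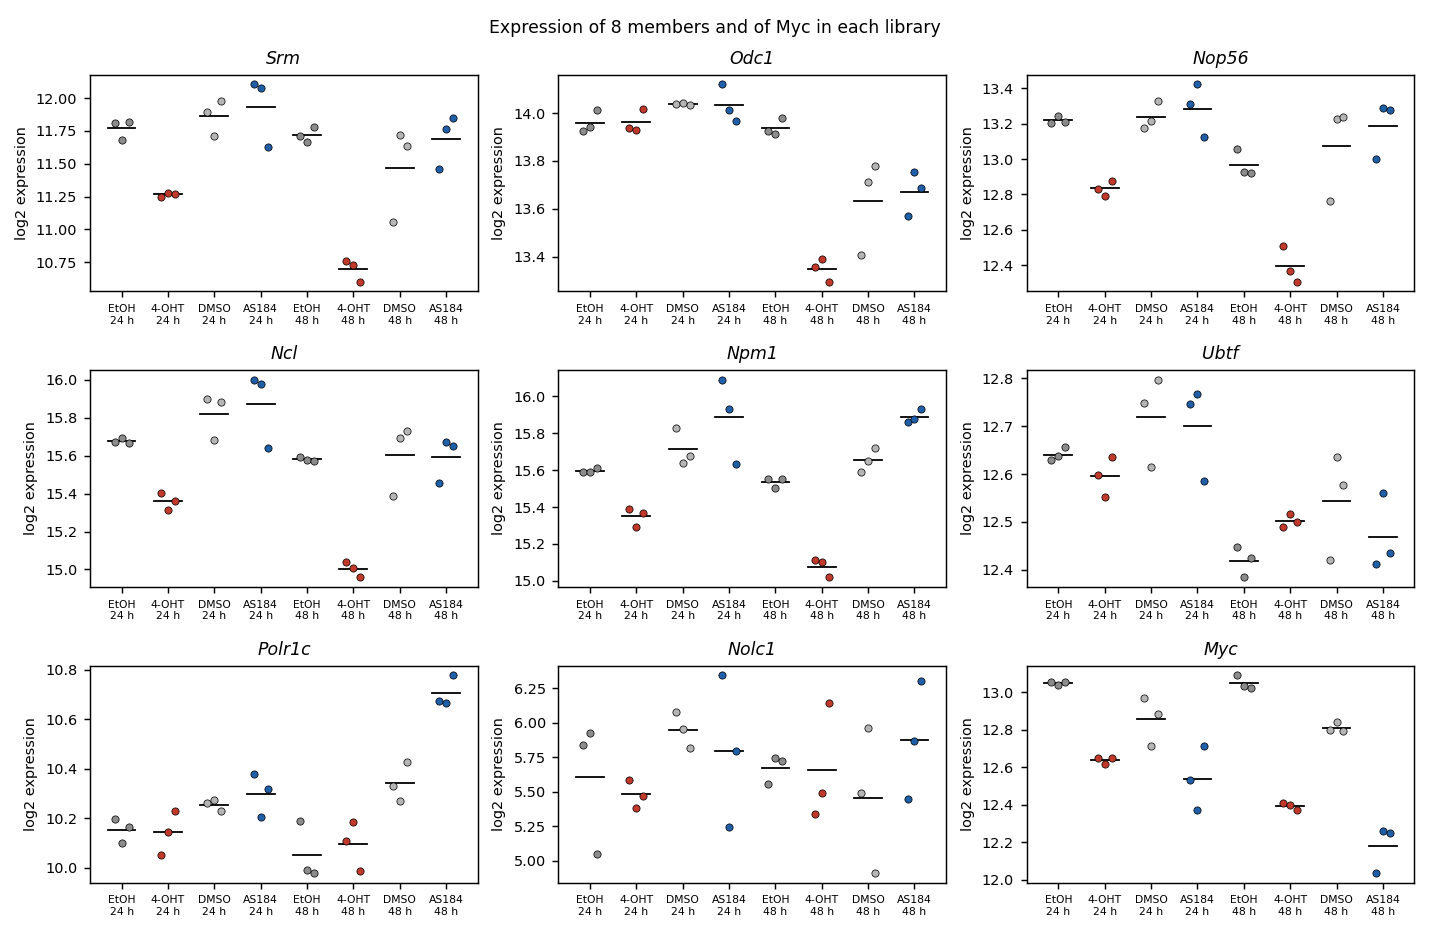
Log2 expression of 8 members and of Myc in each library, by group (AS184 stands for AS1842856). Points from left to right are replicates 1 to 3, lines are group means, and each panel has its own axis. Odc1 is near 14 in both arms at 24 h and falls to 13.30 to 13.39 with 4-OHT at 48 h, while Myc is lowest with AS1842856 at 48 h.

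The authors' deposited table called 38 members lower at 24 h, where 19.5% of its genes were called, and 52 at 48 h, where 36.1% were. The median deposited log2 fold change of the members was -0.40 at 24 h and -0.80 at 48 h in the authors' deposited table, larger in size than the differences between library values. Differences of library values are therefore given as such and not as folds. Leaving out each library in turn, 43 of the 50 calls at 24 h and 53 of the 54 at 48 h held in every fit. Those lost in at least 1 fit at 24 h were Noc4l, Nob1, Ddx10, Wdr12, Rrp1b, Nip7 and Ftsj3.

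The deletion response of many members was larger at 48 h than at 24 h, in a test that depended on the model. In 1 model of the 4 groups, the difference between 4-OHT and EtOH was lower at 48 h than at 24 h in 33 members and higher in 1 (limma, adjusted p under 0.05), where 15.6% of all tested genes were called, 9.03% lower and 6.57% higher. The median change was -0.23 (log2). Odc1 changed most, from 0.00 to -0.59, a change of -0.59 ± 0.05 (limma, adjusted p = 4.10e-05), and Srm went from -0.50 to -1.02, a change of -0.52 ± 0.07 (adjusted p = 4.19e-04). Wdr74, Mybbp1a, a MYB-binding nucleolar protein, Lyar and Noc4l followed with changes of -0.46, -0.41, -0.38 and -0.38. By role, 11 of 19 small subunit, 10 of 18 large subunit, 5 of 6 other nucleolar, 3 of 4 box H/ACA and 2 of 3 box C/D members deepened. No member of RNA polymerase I transcription did, and Ubtf changed by 0.13 ± 0.04 (adjusted p = 0.0461). Polr1b, which had fallen early, changed by -0.08 ± 0.10 (adjusted p = 0.623).

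With all 8 groups in 1 model 3 members passed this test of time, a share near the 3.95% of all genes that did. Without each library in turn, 27 of the 34 calls held in every fit.

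**Figure D3:**
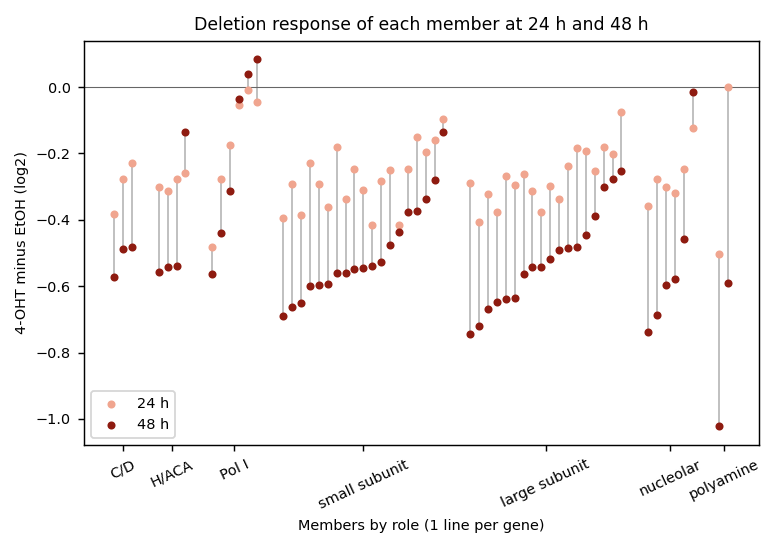
Difference between 4-OHT and EtOH (log2) for each member at 24 h (light) and 48 h (dark), grouped by role, with a line joining the times of each gene. Most lines run downward from about -0.28 to about -0.54, Odc1 starts at 0.00 and ends at -0.59, and in RNA polymerase I transcription Ubtf ends above 0.

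With the inhibitor no fall of a member was detected. At 24 h of AS1842856 no member was called in either direction (limma, adjusted p under 0.05), where 0.00872% of all tested genes were called. None had an unadjusted p under 0.05 either, where 2.02% of all tested genes did. In the authors' deposited table none was called, where 0.13% of genes were. The median member difference was 0.04 (log2, -0.16 to 0.23), with 42 members above and 16 below 0. Without AS1842856 replicate 3 the median was 0.12 and 2 members were below 0, still with none called, where 20 of the 11470 tested genes were. With all libraries, in all 58 the groups overlapped, where 6.32% of all genes had groups that did not. The median standard error of a member was 0.0961, against 0.0416 in the deletion arm at that time, so that smaller shifts were harder to detect. For 47 of the 58 members, with all libraries, the lower bound of the 95% interval of the difference lay above -0.28, the median fall with 4-OHT. Srm, for example, had log2 levels of 11.89, 11.71 and 11.98 with DMSO and 12.10, 12.07 and 11.62 with AS1842856 (difference 0.07, interval -0.24 to 0.38), and Odc1 had 14.04, 14.04 and 14.03 against 14.12, 14.01 and 13.97 (interval of the difference -0.17 to 0.16). Without AS1842856 replicate 3 the difference was 0.23 ± 0.08 for Srm and 0.03 ± 0.07 for Odc1.

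At 48 h of AS1842856, Polr1c rose and no member fell (limma, adjusted p under 0.05), where 4.86% of all tested genes were called and 1.88% were higher. The median member difference was 0.09 (log2, -0.17 to 0.42), with 47 members above and 11 below 0. Polr1c, shared by RNA polymerases I and III, had log2 levels of 10.33, 10.27 and 10.43 with DMSO and 10.67, 10.67 and 10.78 with AS1842856, a rise of 0.36 ± 0.06 (limma, adjusted p = 0.0208) without overlap. In the authors' deposited table it was at 1.45-fold. The call was lost in 4 of the 6 fits without 1 library, with adjusted p between 0.0265 and 0.103. At an unadjusted p under 0.05, 7 members were higher, 7 of 58 against 20.9% of all genes in either direction. In the same libraries the summed level of the 8 B-lineage markers was 15.92 to 16.05 with DMSO and 15.61 to 15.70 with AS1842856, and its part in this result was not tested.

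At this time, in this arm, deviations from the group means correlated at 0.41, 0.26 and 0.15 between libraries of equal replicate number. Between unequal numbers they reached 0.18, so only replicate 1 stood clearly apart, and pairing is not established. With the replicate number as a block 7 members passed, all higher, where 14.2% of all genes passed and 6.66% were higher. These were Polr1c (0.36 ± 0.04, limma, adjusted p = 0.00342), Tsr1, a factor of late 40S maturation (0.30 ± 0.04, adjusted p = 0.00681), Npm1 (0.23 ± 0.04, adjusted p = 0.0150), Utp15 (0.20 ± 0.04), Ltv1, a 40S export factor (0.21 ± 0.04), Nle1, a large subunit factor (0.21 ± 0.05), and Wdr74 (0.24 ± 0.06). In Npm1 the DMSO libraries held 15.59, 15.65 and 15.72 and the AS1842856 libraries 15.86, 15.88 and 15.93, without overlap. The authors' deposited table called 4 members higher, Polr1c, Utp15, Wdr74 and Npm1, out of 12.6% of genes. In 6 members all AS1842856 libraries were above all DMSO libraries, where 13.1% of all genes were so, and in none were they all below. The direction of the median rested on DMSO replicate 1: without it alone the median member difference was -0.02, with 22 members above and 36 below 0, and Srm at 0.01 ± 0.11. In that fit 1 member was called, where 901 of the 11470 tested genes were. Without both libraries numbered 1, an alternative chosen after seeing the data, the median member difference was 0.04, and 38 members lay above and 20 below 0. There 4 members were called, a share near that of all tested genes, of which 849 were called.

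Several genes that fell with 4-OHT, such as Srm, overlapped between the groups of the compound arm at 48 h, whereas Npm1, given above, did not. Srm had log2 levels of 11.06, 11.72 and 11.63 with DMSO and 11.46, 11.77 and 11.85 with AS1842856 (difference 0.22, interval -0.19 to 0.63). Nop56 had 12.76, 13.22 and 13.24 against 13.00, 13.29 and 13.28 (difference 0.11, interval -0.21 to 0.43), and Odc1 had 13.41, 13.71 and 13.78 against 13.57, 13.75 and 13.69 (difference 0.04, interval -0.20 to 0.27). In each of the 3 genes replicate 1 was the lowest of both groups. Ncl had 15.39, 15.69 and 15.73 against 15.46, 15.67 and 15.65 (difference -0.01, interval -0.26 to 0.25), and Dkc1 had 12.06, 12.44 and 12.46 against 12.23, 12.41 and 12.39 (difference 0.03, interval -0.23 to 0.28). For all 58 members the lower bound of the interval lay above -0.54, the median fall with 4-OHT at that time. The compound response did not change detectably between 24 h and 48 h in any member (limma, 0 called, 1 at an unadjusted p under 0.05, where 0.00872% of all genes were called and 3.86% had such a p). Its median member change was 0.04, and -0.08 without DMSO replicate 1 at 48 h or -0.05 without AS1842856 replicate 3 at 24 h.

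**Figure D4:**
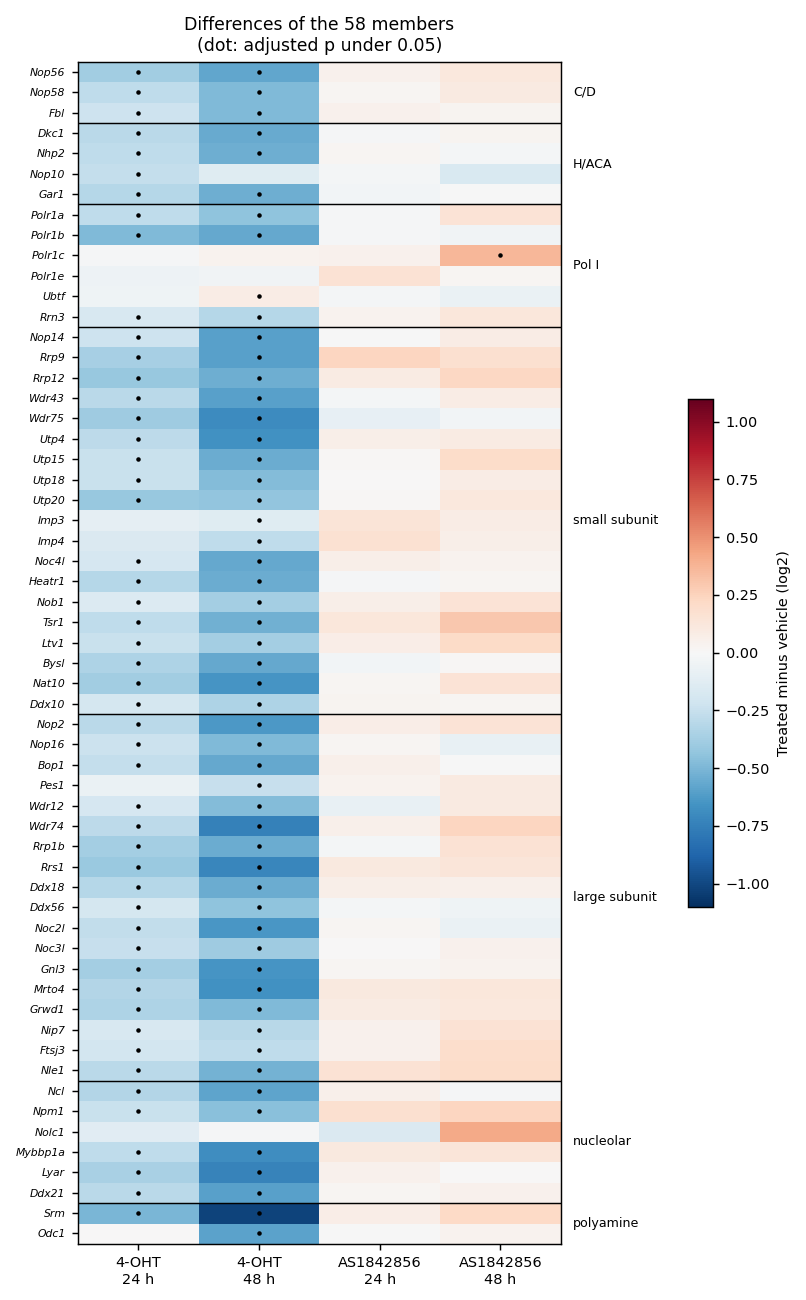
Difference between treated and vehicle libraries (log2, colour) of the 58 members, by role, in the 4 treatment comparisons. Dots mark an adjusted p under 0.05 (limma): 50 and 54 members in the 4-OHT columns, 0 and 1 in the AS1842856 columns.

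The arms were then compared by testing the difference between the responses. At 24 h the compound response was higher than the deletion response in 8 members and lower in none (limma, adjusted p under 0.05), where 6.1% of all tested genes were called and 1.95% were higher. These 8 were Srm (0.58 ± 0.15), Rrp9 (0.60 ± 0.13), Rrs1, a large subunit factor (0.52 ± 0.11), Nop56 (0.43 ± 0.10), Gnl3, the GTPase nucleostemin (0.40 ± 0.11), Lyar (0.40 ± 0.10), Ddx18, an RNA helicase (0.38 ± 0.10), and Noc2l, a factor of large subunit export (0.29 ± 0.07). The median over the members was 0.30. AS1842856 replicate 3 decided this count: without it 47 members passed, where 2037 of the 11470 tested genes did, and the other fits without 1 library gave 1 to 10. Over all fits without 1 library, 408 to 2037 of all tested genes passed.

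At 48 h the compound response was higher than the deletion response in 53 members and lower in none (limma, adjusted p under 0.05), where 37.1% of all tested genes were called and 18% were higher. The median difference of the responses was 0.58 (log2, -0.16 to 1.24). Srm differed most, by 1.24 ± 0.20 (adjusted p = 5.83e-04), then Wdr74 by 0.98 ± 0.11 and Rrs1 by 0.85 ± 0.12. Odc1 differed by 0.63 ± 0.11 (adjusted p = 0.00121), Nop56 by 0.68 ± 0.16, Dkc1 by 0.58 ± 0.13, Polr1b by 0.52 ± 0.17, Nop2 by 0.78 ± 0.15 and Npm1 by 0.69 ± 0.07. All 19 small subunit members, 17 of 18 large subunit members and both polyamine enzymes passed. The 5 that did not pass, named after their values were seen, were Nop10, Polr1e, Ubtf, Nop16 and Nolc1. Polr1c passed (0.32 ± 0.10, adjusted p = 0.0221) through its rise with AS1842856. Without both compound-arm libraries numbered 1, an alternative chosen after seeing the data, the median was 0.55, with 56 members above and 2 below 0.

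**Figure D5:**
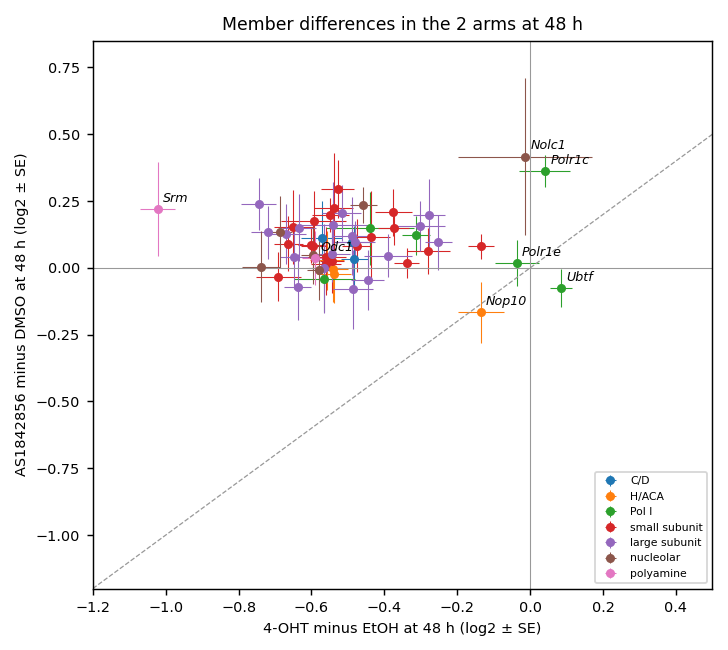
Difference between treated and vehicle libraries (log2, with standard errors) of each member at 48 h, in the deletion arm (horizontal) and the compound arm (vertical), coloured by role. The dashed line marks equal responses; all members but Nop10 and Ubtf lie above it, with Srm at -1.02 and 0.22.

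Myc, which encodes the factor named above, fell in both arms. Its log2 levels at 48 h were 13.09, 13.04 and 13.03 with EtOH and 12.41, 12.40 and 12.37 with 4-OHT, a fall of 0.66 ± 0.03 (limma, adjusted p = 7.37e-07). They were 12.80, 12.84 and 12.80 with DMSO and 12.04, 12.26 and 12.25 with AS1842856, a fall of 0.63 ± 0.07 (limma, adjusted p = 0.00626). Neither arm's groups overlapped, and the 2 responses differed by 0.03 ± 0.08 (adjusted p = 0.799). Most members fell with Myc in the deletion arm. In the compound arm at 48 h no member was called lower, and the sign of the median member difference rested on DMSO replicate 1. The members thus had no settled direction there, and any part of Myc in their changes was not tested. Over the 24 libraries, as a description, Myc correlated with the member mean at r = 0.29. At 24 h Myc fell by 0.41 ± 0.03 with 4-OHT, while the difference of -0.32 ± 0.10 with AS1842856 did not pass.

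Among 10 genes of the MYC network, 2 fell and 4 rose with 4-OHT at 48 h, a share near the 50.8% of all genes called there. Those that rose encode partners or competitors that repress E-box genes: Mxd1 (1.13 ± 0.07), Mxd3 (0.85 ± 0.06), Mxd4 (0.78 ± 0.04) and Mnt (0.40 ± 0.05), each with a limma adjusted p of 2.15e-04 or lower. With Myc, Mycn fell (-0.86 ± 0.03). With AS1842856 at 48 h 4 of the 10 fell and none rose, where 4.86% of all genes were called, namely Myc, Mxd3 (-0.46 ± 0.09), Mxi1 (-0.46 ± 0.06) and Mnt (-0.32 ± 0.07). The responses of the arms differed for Mxd1, Mxd3, Mxd4, Mnt and Mxi1 at 48 h, by -1.05 ± 0.15, -1.31 ± 0.10, -1.21 ± 0.36, -0.72 ± 0.08 and -0.57 ± 0.08 (limma, adjusted p of 0.0206 or lower). Mycn differed too, in the other direction, by 0.66 ± 0.06 (limma, adjusted p = 1.22e-05). With AS1842856 at 48 h Mycn differed from DMSO by -0.20 ± 0.05 and did not pass (limma, adjusted p = 0.0817).

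Other genes of the same pathways, listed by role, also mostly fell in the deletion arm, other than those around RNA polymerase I. With 4-OHT at 48 h, 29 of 34 further small subunit genes fell (median -0.34, that of the members being -0.54), among them Pno1 (-0.64) and Pwp2 (-0.60), and none rose, where 25.8% of all genes fell. Of 39 further large subunit genes 31 fell (median -0.38), led by Tma16 (-0.77) and Gtpbp4 (-0.68), and Nop53 rose (0.22). Of 8 assembly factors of small nucleolar ribonucleoproteins 6 fell (median -0.33), and of 13 subunits and cofactors of the nuclear RNA exosome 10 fell (median -0.27). A list of 12 further genes around RNA polymerase I had 5 that fell and 1 that rose (median -0.17). It also holds Znhit6 (-0.59) and Nol11 (-0.46), which belong by function to box C/D particle assembly and to the small subunit processome and were 2 of the 5. Apart from these 2, the share of that list that fell was near the 25.8% of all genes. The gene that rose was Ttf1, a terminator of ribosomal RNA transcription (0.53). At 24 h the numbers that fell were 21 of 34, 26 of 39, 5 of 8, 6 of 13 and 4 of 12, Znhit6 and Nol11 again among the last, where 13.7% of all genes fell. Taf1d, of the RNA polymerase I list, rose at 24 h (0.54 ± 0.09, limma, adjusted p = 0.00286). With AS1842856 at 48 h 1 small subunit gene rose (Rrp7a, 0.24) and 1 fell (Utp3, -0.20), Exosc5 fell (-0.48), and no further gene of these 5 lists passed. Genes named in this paragraph were picked after their values were seen.

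Around Srm and Odc1, 6 of 14 further polyamine genes fell and 1 rose with 4-OHT at 24 h, and 5 fell and 3 rose at 48 h (limma, adjusted p under 0.05). At 48 h that share of called genes is near the 50.8% of all genes, and at 24 h 29.5% of all genes were called. Sat1, which acetylates polyamines for breakdown and export, rose by 0.33 ± 0.05 and 0.60 ± 0.07 at the 2 times. Mtap, which salvages a by-product of spermidine synthesis, fell by 0.30 ± 0.03 and 0.57 ± 0.05, and Eif5a, the protein that carries hypusine made from spermidine, by 0.17 ± 0.03 and 0.39 ± 0.04. Amd1, which supplies the aminopropyl donor, fell by 0.74 ± 0.17 at 24 h (adjusted p = 0.0128) and differed by -0.87 ± 0.34 at 48 h without passing (adjusted p = 0.0570). None of the 14 passed with AS1842856 at either time, and these 4 were named after their values were seen.

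Members also differed over time in the vehicle groups, to an extent that depended on the model. With EtOH, 15 members were lower and 2 higher at 48 h than at 24 h (limma, adjusted p under 0.05), where 25.4% of all tested genes were called, 12% lower and 13.4% higher, and the median member difference was -0.06 (log2). Polr1b fell by 0.37 ± 0.06, Nop56 by 0.25 ± 0.04 and Ubtf by 0.22 ± 0.03, and the 2 that rose were Wdr74 (0.26 ± 0.05, adjusted p = 0.00734) and Utp4 (0.16 ± 0.04, adjusted p = 0.0232). With all 8 groups in 1 model only 3 members were called for EtOH, where 11.6% of all genes were. With DMSO 57 of 58 members were below 0, with a median of -0.20, but none was called (0.00872% of all genes were). An unadjusted p under 0.05 was found in 12 members and in 10.2% of all genes, and with all 8 groups in 1 model 1 member and 1.94% of all genes were called. Without DMSO replicate 1 at 48 h the median was -0.09, 51 members were below 0 and 3 had an unadjusted p under 0.05. Srm and Odc1 differed by -0.39 ± 0.16 and -0.40 ± 0.10 over time with DMSO and by -0.05 ± 0.05 and -0.02 ± 0.03 with EtOH, and without DMSO replicate 1 at 48 h, the lowest in both genes, the DMSO values were -0.19 ± 0.08 and -0.29 ± 0.06. In 14 members all 48 h DMSO libraries lay below all 24 h ones, where 9.2% of all genes did so.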

How the data were processed

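Libraries were grouped from their labels, 3 in each of 8 groups. DESeq2 1.44.0, Salmon 1.1.1, STAR 2.7.11b and the mm10 build are named, without roles, in the processing notes by the submitters, and the labels' protocols name total RNA from a column kit. Columns for single libraries and for the mean were deposited as log2 levels, normalised in a way that the headers do not name, so depth is unknown. Per the file headers, deposited fold changes are on the log2 scale too. The deposited standard error is that of the log2 fold change, and the test statistic is a score, beside the authors' p-value and adjusted p-value.

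Of 20000 genes with values, 11470 whose deposited mean was at least log2(11) were tested with limma 3.58.1 in R 4.3.3. The fits used a trended empirical Bayes variance and Benjamini-Hochberg adjustment over all tested genes, with calls at an adjusted p under 0.05. That limit is a normalised count of 10 if the levels are log2 of a count plus 1. Summed marker levels rest on the same reading, and levels per kilobase on a log2 scale. Treatments and times were fitted on the 2 groups compared, differences of responses in 1 model of 4 groups. Errors after ± are standard errors and intervals are at 95%. The fits were tested on simulated data. Members, lists and tests were chosen with earlier results of these data known. Values by library are given for Srm, Odc1, the first 2 members of each other role and the 3 largest changes each way in a treatment comparison; members named beyond this rule were picked after their values were seen.

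Whether equal replicate numbers pair libraries was checked by correlating their deviations from the group means: for AS1842856 and DMSO at 48 h the correlations of the 3 numbers were 0.41, 0.26 and 0.15, and in no other comparison was every value above 0.1. Unequal numbers reached 0.18 there, above the value of number 3, so the check did not settle pairing. Alternatives tried were no filter or a stricter one, equal library medians, an added pseudocount of 10, no variance trend, all 8 groups in 1 model, the replicate block, each library left out, and the authors' deposited adjusted p. Sequences are RefSeq promoters of GRCm38.p6; gene positions are GENCODE M21. Figures were drawn with matplotlib 3.10.9.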

Additional observations from a re-analysis of the deposited data

Results flagged for a closer look

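Groups of 3 libraries were not tested for outlying samples. Flagged were differences between responses under the same contrast, each by its own test (limma, adjusted p under 0.05).

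Between 48 h and 24 h of 4-OHT the response changed in 34 members, where 15.6% of all tested genes were called. With all 8 groups in 1 model 3 members passed, a share near the 3.95% of all genes. On the log2 scale the response changed by -0.52 for Srm, -0.59 for Odc1, -0.21 for Nop58, -0.26 for Dkc1, -0.26 for Nhp2, -0.37 for Nop14, -0.34 for Nop2, -0.26 for Ncl and -0.21 for Npm1, and by 0.13 for Ubtf, the member that went the other way.

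Between the arms at 24 h, 8 members differed, where 6.1% of all tested genes were called. Leaving out each library gave 1 to 47 members and 408 to 2037 of all tested genes. The compound response minus the deletion response was 0.58 for Srm, 0.43 for Nop56 and 0.60 for Rrp9. At 48 h 53 members differed, where 37.1% of all tested genes were called. The values were 1.24 for Srm, 0.63 for Odc1, 0.68 for Nop56, 0.59 for Nop58, 0.58 for Dkc1, 0.52 for Nhp2, 0.59 for Polr1a, 0.52 for Polr1b, 0.68 for Nop14, 0.77 for Rrp9, 0.78 for Nop2, 0.57 for Ncl and 0.69 for Npm1. Of the 53 calls, 42 held in every fit without 1 library.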

How the results depend on the processing

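No called result changed sign under the alternatives run, while the median member difference in the compound arm at 48 h went from 0.09 to -0.02 without DMSO replicate 1. Member counts of the 4-OHT comparisons were within 1.5 times of those reported under every alternative, except 32 at 24 h with all 8 groups in 1 model. In the compound arm at 48 h members called were 0 with no filter, 7 with the replicate block, 4 without both libraries numbered 1 (chosen after seeing the data), 4 in the authors' deposited table and 0 to 1 leaving out each library; 849 of all genes passed without both libraries numbered 1. For EtOH over time they were 11 with no variance trend, 3 with all 8 groups and 11 to 20 leaving out each library, and for DMSO over time 1 with all 8 groups. For the growth of the deletion response 3 members passed with all 8 groups. For the arms at 24 h they were 2 with no filter, 3 with no trend, 4 with all 8 groups, 4 with the replicate block and 1 to 47 leaving out each library.

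Over all genes, those at or above the median level alone gave 2178 and 3529 calls for 4-OHT at 24 h and 48 h, 0 for AS1842856 at 24 h, DMSO over time and the change of the compound response, and 425 and 2688 between the arms. All 8 groups in 1 model gave 2219 for 4-OHT at 24 h, 0 and 1220 for AS1842856, 1332 for EtOH and 223 for DMSO over time, 453 and 5 for the changes of the deletion and compound responses, and 1106 between the arms at 24 h. No filter gave 4 and 205 for AS1842856, 1689 for EtOH, 7 for DMSO and 9 for the compound response over time. The replicate block gave 1629 for AS1842856 at 48 h and 3 for DMSO over time, and the deposited adjusted p of the authors gave 15 calls for AS1842856 at 24 h and 1505 at 48 h. Leaving out each library gave 1 to 20 and 108 to 901 for AS1842856 at 24 h and 48 h, 1704 to 2858 for EtOH and 1 to 4 for DMSO over time, 1 to 4 for the change of the compound response, and 408 to 2037 between the arms at 24 h. With the replicate block, 50 members passed at 24 h and 53 at 48 h of 4-OHT, where 29.2% and 49% of all genes passed. For EtOH over time 18 members and 25.2% of all genes passed with the block. Between the arms the block gave 4 members in place of 8 at 24 h, and 52 at 48 h, where 5.09% and 36.1% of all genes passed.

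Depth is unknown, so no limit from counting can be given. At 48 h the median standard error of a member was 0.109 in the compound arm and 0.0476 in the deletion arm, so a small rise or fall there could go undetected.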
